A study of Rattus norvegicus with 56 samples.

Results

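The data describe rno-miR-33-5p, the 5p arm of miR-33, in the hippocampus of rats from 24 h to 1 y after fluid percussion injury (FPI), a model of traumatic brain injury (TBI) in which a pulse of fluid strikes the exposed dura. It was selected on its counts at 1 m, where its decrease after TBI was among the strongest, and it is 1 of the 367 mature miRNAs in the count table. Small RNA was sequenced from 28 TBI rats and 28 sham rats, the latter with sham surgery, 4 per arm at each of 7 intervals (24 h and 2 w, then 1 m, 2 m, 3 m and 6 m, and lastly 1 y), and each of the 56 libraries came from the hippocampus of 1 rat. The strain, sex and age are not given in the sources used here. Because the 1 m contrast decided the choice, the 1 m values are given as a description with no test, and the tests use the other 6 intervals.

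miR-33 is transcribed within Srebf2, the gene of sterol regulatory element binding protein 2, a transcription factor that turns on cholesterol synthesis and uptake when cell sterols are low. The miRNA represses the cholesterol exporter Abca1 and genes of fatty acid oxidation, so that host gene and miRNA both act to hold cholesterol in the cell. In brain, Abca1 moves cholesterol from astrocytes and microglia onto apolipoprotein E particles, and the miRNA is known there as a regulator of that export. The counts cover small RNA alone, and neither Srebf2 nor Abca1 mRNA was measured.

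The sequence is shown because it sets which mRNAs the miRNA can pair with and because base composition is compared with its level below. Both arms are printed from RefSeq with the seed, bases 2 to 8 from the 5′ end, in capitals, followed by the hairpin with the arms in capitals. All lie on the plus strand of the GRCr8 build, inside the span and on the strand of Srebf2, with the mature 5p arm at chr7:115593957-115593977, the 3p arm at chr7:115593997-115594017 and the hairpin at chr7:115593952-115594020. The build that the read counting used is not given in the sources used here.
rno-miR-33-5p: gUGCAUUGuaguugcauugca
rno-miR-33-3p: cAAUGUUUccacagugcauca
Mir33 hairpin: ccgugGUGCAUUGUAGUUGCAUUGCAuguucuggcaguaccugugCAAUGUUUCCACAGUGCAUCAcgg
The letters of the seed occurred a second time in the 5p arm, from base 13. No other of 693 rat mature miRNAs in the RefSeq table had the same bases 2 to 8, or the same bases 2 to 7, and so no other miRNA among the 331 of the count table with a sequence shared the seed of rno-miR-33-5p. The 5p arm has a GC content of 42.9%, where the median over the 222 tested miRNAs with a sequence was 45.8%. The 3p arm was not analysed here.

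rno-miR-33-5p was a miRNA of moderate abundance in hippocampus. Its mean over the 56 libraries was 43.5 CPM (the count scaled by TMM to library size). Of the 244 miRNAs that passed the filter on low counts, 150 were more abundant, and the median miRNA stood at 113 CPM. It took 0.0043% of all counts on average. In 55 libraries it had 64 to 515 counts. The remaining library, TBI rat X747 at 2 m, had 0 counts in a total of only 69628, the lowest total by far, and 0 counts there allow a level of up to 43.1 CPM (3 counts, counting error only). That limit lay above the level of 16 of the other 55 libraries, so in this library a low level cannot be told apart from none. The totals of the others were 2083604 to 12468979. The defining miRNAs of the tissue's cell types were present in every library, among them miR-124-5p of neurons with at least 34 counts and miR-219a-5p of oligodendrocytes with at least 11.

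**Figure D1:**
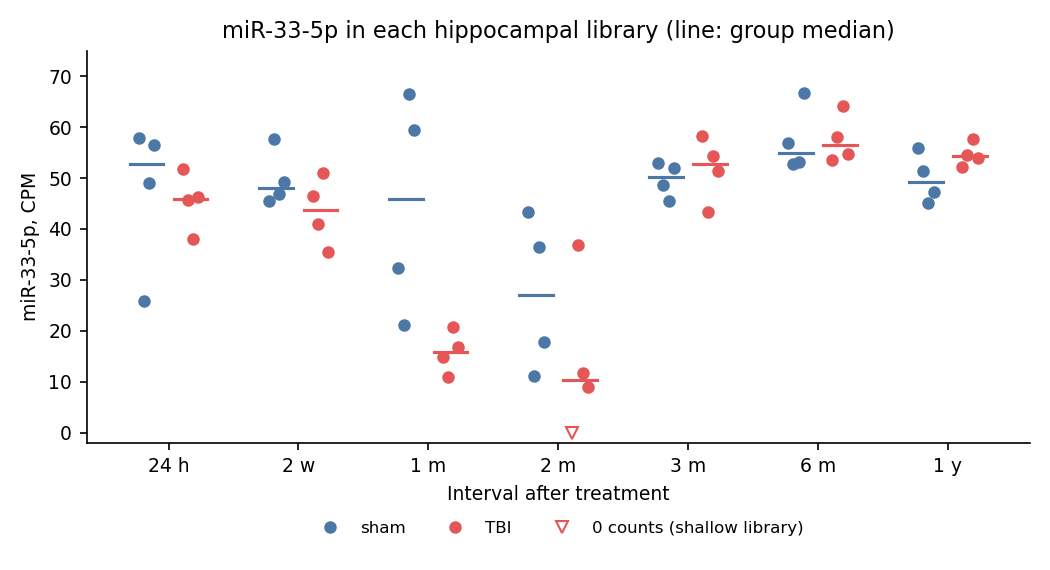
Level of rno-miR-33-5p in CPM (vertical axis) in each of the 56 hippocampal libraries by interval after treatment (horizontal axis), sham in blue and TBI in red, with a line at each group median and an open triangle for the library with 0 counts. The points outside 1 m and 2 m lie between 25.9 and 66.7 CPM, while those at 1 m and 2 m reach down to 8.90 CPM and, in the shallow library, 0.

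Outside 1 m and 2 m the level held within a narrow band in both arms. Over these 40 libraries the median was 51.9 CPM, and 39 of them lay between 35.5 and 66.7 CPM, with sham rat X599 at 24 h apart at 25.9 CPM. In contrast, 9 of the 15 libraries of usual depth at 1 m and 2 m were below 25.9 CPM, 3 of 8 sham and 6 of 7 TBI libraries. Of these 6, 4 were 1 m TBI rats, and the 1 m contrast decided the choice, so the split between the arms is a description. The low values were thus found in sham as well as TBI rats at these intervals. A bulk library cannot tell fewer cells that carry a miRNA from less of it per cell.

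At 24 h the sham rats had 57.9, 25.9, 49.1 and 56.5 CPM and the TBI rats 51.8, 45.6, 38.1 and 46.2 CPM of rno-miR-33-5p. The groups overlapped, since the lowest library was a sham rat, X599. On the log2 scale TBI differed from sham by −0.03 with a standard error of 0.25. The adjusted p was 0.985 (quasi-likelihood test of edgeR) and the exact two-sided permutation p was 1. Without X599 the log2 fold change was −0.30 (adjusted p = 0.676).

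At 2 w the sham rats had 45.5, 57.7, 47.0 and 49.2 CPM and the TBI rats 46.4, 41.0, 51.0 and 35.5 CPM. Medians were 48.1 and 43.7 CPM, and 2 of the TBI rats fell below all sham rats while the other two lay among them. The log2 fold change of −0.18 (standard error 0.14) did not pass the test, with an adjusted p of 0.681 from edgeR and an exact permutation p of 0.229.

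At 1 m, the interval that decided the choice, the sham rats had 32.2, 21.1, 66.6 and 59.4 CPM and the TBI rats 14.9, 10.9, 20.7 and 16.9 CPM. All 4 TBI rats lay below all 4 sham rats, but the highest TBI rat, X757, was only 0.391 CPM below the lowest sham rat, X795. The group means were 15.8 ± 4.06 CPM after TBI and 44.8 ± 21.7 CPM in sham rats (SD, n = 4 each), and the sham rats alone spanned a 3.16-fold range. The fitted log2 fold change was −1.45 (standard error 0.34), the second lowest of 240 miRNAs. miR-144-5p preceded it by less than the rounding (−1.45), and miR-544-5p (−1.26), miR-451-5p (−1.20) and miR-3065-5p (−0.99) followed. Of the 240 miRNAs, 4.17% had all 4 TBI rats below all 4 sham rats at 1 m. Leaving out sham rat X784 gave −1.21 and leaving out sham rat X795 gave −1.71.

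At 2 m the sham rats had 43.3, 11.1, 36.5 and 17.7 CPM, and the TBI rats with a library of usual depth had 36.8, 11.8 and 8.90 CPM. Both arms thus held rats near 10 CPM and rats near 40 CPM, and the groups overlapped over almost their whole range. With all 8 libraries TBI differed from sham by −0.56 on the log2 scale (SE 0.51, edgeR's adjusted p = 0.752), and by −0.54 without X747 (adjusted p = 0.765). The exact permutation used mean log2 CPM, where X747 entered at −1.56 through the prior count. That difference was −1.97 with X747 (exact permutation p = 0.229) and −0.58 without it (exact permutation p = 0.486). Leaving out TBI rat X749, the single TBI rat near 40 CPM, gave −1.40 (adjusted p = 0.177), and leaving out sham rat X751 gave −0.21 (adjusted p = 0.965).

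At 3 m the sham rats had 53.0, 48.6, 45.5 and 51.97 CPM and the TBI rats 58.3, 43.4, 54.3 and 51.5 CPM. At 6 m the values were 56.8, 52.8, 53.2 and 66.7 CPM in sham and 53.6, 58.2, 64.2 and 54.8 CPM in TBI rats. At 1 y they were 55.9, 51.4, 45.0 and 47.2 CPM in sham and 52.2, 54.6, 57.6 and 53.9 CPM in TBI rats. From 3 m on, every rat of either arm thus had between 43.4 and 66.7 CPM, and TBI and sham rats overlapped at each interval. The log2 fold changes were 0.10 at 3 m (standard error 0.12), 0.00 at 6 m (0.13) and 0.13 at 1 y (0.09). The adjusted p from edgeR was 0.7998, 0.998 and 0.487, and the exact permutation p was 0.629, 0.857 and 0.171, where 4 rats against 4 cannot go below 0.0286. Adjusted over the 6 intervals, the exact permutation p was at least 0.457.

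**Figure D2:**
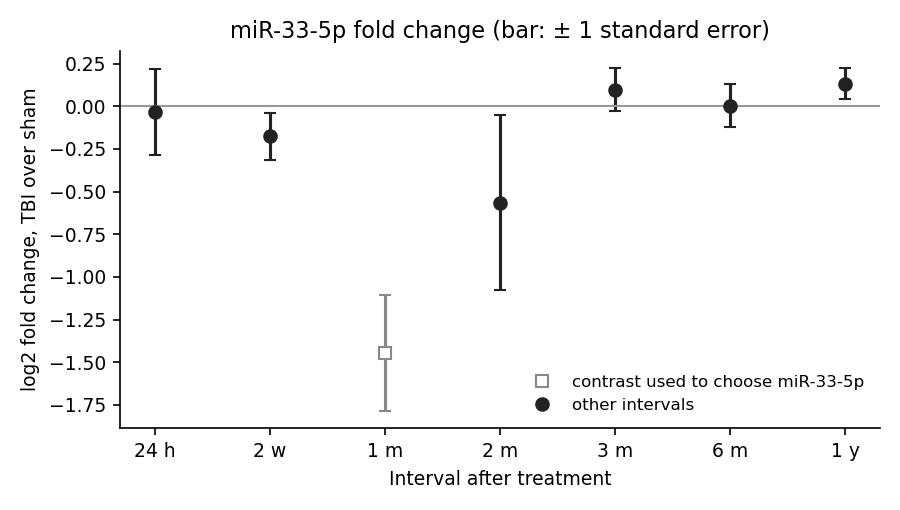
Log2 fold change of rno-miR-33-5p, TBI over sham (vertical axis), by interval after treatment (horizontal axis), with bars of 1 standard error from edgeR. The open square at 1 m (−1.45) is the contrast used to choose the miRNA and carries no test, and the filled points of the other 6 intervals lie between −0.56 at 2 m and 0.13 at 1 y.

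Of all miRNAs tested, edgeR called 1.72% at 24 h and 0% at 2 w, 0% at 2 m and 3 m, and 0% at 6 m and 1 y. At these last 5 intervals, in order, 21, 20, 13, 10 and 18 miRNAs had an unadjusted p under 0.05, and DESeq2 called 7, 1, 1, 0 and 0. All 4 TBI rats lay below all 4 sham rats for 0.858% of miRNAs at 24 h and 2.2% at 2 w. At 2 m this held for 2.54%, at 3 m for 0.909%, at 6 m for 0.446% and at 1 y for 3.11%, and rno-miR-33-5p was not among them. In a fit over the 48 libraries without 1 m, the mean TBI effect on rno-miR-33-5p was −0.08 on the log2 scale (SE 0.11, adjusted p = 0.858), where 3.32% of 241 miRNAs were called. The injury effect was not found to differ among those 6 intervals (adjusted p = 0.960 for the 5 interaction terms, with 1.66% of 241 miRNAs called).

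Over the 6 intervals without 1 m the level of rno-miR-33-5p differed between intervals in both arms. Ordered by group median, 6 m TBI and 6 m sham rats came first at 56.5 and 55.0 CPM, followed by 1 y TBI (54.2), 3 m TBI (52.9), 24 h sham (52.8), 3 m sham (50.3), 1 y sham (49.3), 2 w sham (48.1), 24 h TBI (45.9), 1 m sham (45.8) and 2 w TBI (43.7). The last 3 were 2 m sham at 27.1, 1 m TBI at 15.9 and 2 m TBI at 10.4 CPM. Each group in that order overlapped the next in its range. Across the 6 intervals the level differed among sham rats with an adjusted p of 0.0385 and among TBI rats with an adjusted p of 0.00352, both from edgeR. Many other miRNAs did so as well, since 33.5% of 233 miRNAs were called in sham rats and 23.6% of 237 in TBI rats.

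Without 2 m the adjusted p for rno-miR-33-5p was 0.728 in sham rats and 0.0689 in TBI rats (unadjusted p = 0.605 and 0.0209 from edgeR). The number of miRNAs called across the intervals was 78 of 233 in sham rats with 2 m and 8 of 231 without it, and 56 of 237 in TBI rats with 2 m and 64 of 234 without it. The call for rno-miR-33-5p in sham rats was lost with scaling to the total count only (adjusted p = 0.136), and also when any of 15 of the 24 rats was left out, among them all 4 at 3 m and all 4 at 6 m, with adjusted p from 0.0110 (without X599) to 0.143 (without X776). The call in TBI rats held with each rat left out, with an adjusted p of at most 0.0172. The libraries of 1 m and 2 m also stood apart in other ways. They had a median total of 7820842 counts against 4680004 in the other 40, and their titles carry numbers from 21 to 28 where all others carry 1 to 20. What the number marks is not stated, so an effect of it on these levels and an effect of the interval cannot be told apart.

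Among rats treated alike, rno-miR-33-5p spread most in the 24 h sham, 1 m sham, 2 m sham and 2 m TBI groups. In the 24 h sham rats, which include X599, the SD of its log2 CPM was 0.54 against a median of 0.28, with 26 of the 243 other miRNAs larger. It was 0.77 in the 1 m sham rats, where the median over the other miRNAs was 0.23 and only 9 of them had a larger SD. In the 2 m sham rats it was 0.90 against a median of 0.24, with 3 of the 243 larger, and in the 3 TBI rats of usual depth at 2 m it was 1.06 against 0.36, with 5 larger. By comparison, the SD was 0.38 in the 1 m TBI rats, close to the median of the other miRNAs (0.38), and 0.06 to 0.18 in the 6 groups from 3 m on, with all 6 below the median of the other miRNAs.

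**Figure D3:**
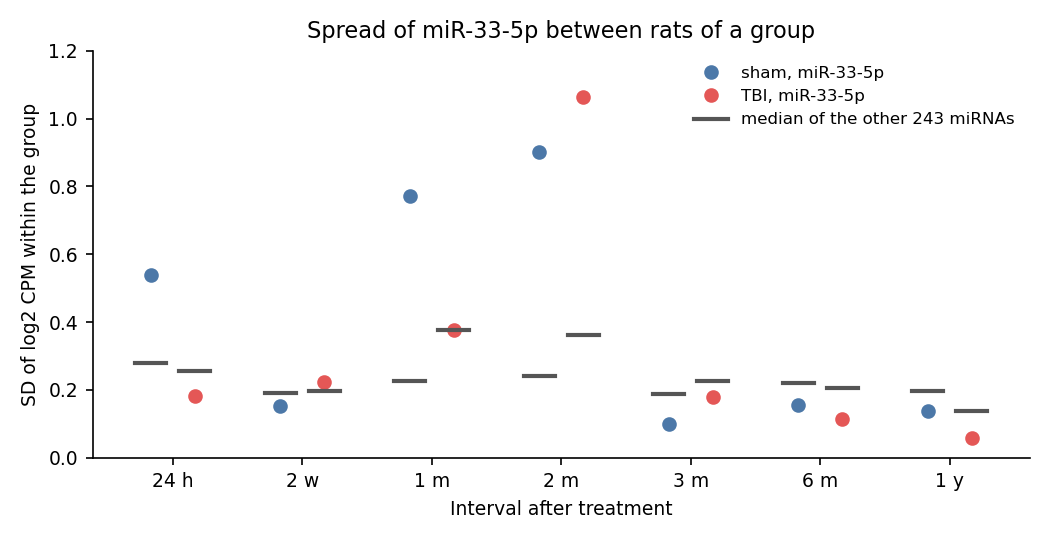
SD of log2 CPM between the rats of a group (vertical axis) by interval after treatment (horizontal axis), for rno-miR-33-5p in sham (blue) and TBI rats (red), with grey lines at the median SD of the other 243 miRNAs; the 2 m TBI group is shown without the shallow library. The points of 1 m sham (0.77), 2 m sham (0.90) and 2 m TBI rats (1.06) lie far above their lines, and those from 3 m on lie below them.

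The base composition of each library was compared with its level of rno-miR-33-5p. The GC slope of a library, the change in log2 level per 10 percentage points of GC content over the other miRNAs with a sequence, was −0.01 to 0.01 in the 1 m sham rats, where a slope above 0 means that GC-rich miRNAs read high, and 0.22, 0.28, −0.02 and 0.18 in the 1 m TBI rats in the order of the CPM values given above. At 2 m the sham rats with 43.3 and 36.5 CPM had slopes of −0.01 and −0.05, while those with 11.1 and 17.7 CPM had slopes of 0.11 and 0.14. Among TBI rats at 2 m the slope was −0.13 in the rat with 36.8 CPM and 0.19 and 0.06 in those with 11.8 and 8.90 CPM. At 24 h, sham rat X594 had a slope of 0.14 at 56.5 CPM and sham rat X599 had a slope of 0.10 at 25.9 CPM. Over the 15 libraries of 1 m and 2 m without X747, the Spearman correlation of rno-miR-33-5p with the slope was −0.74, and over the 40 other libraries −0.17. Level and slope come from the same libraries and scaling, and these correlations are descriptions. The part of base composition in the low levels was not tested. With the slope entered as an offset, a setting added after the data were seen, the log2 fold change at 1 m was −1.37, and the adjusted p across intervals was 0.0367 in sham and 0.00181 in TBI rats. The offset grows with the distance of a miRNA's GC content from the mean. At 42.9%, near the median of 45.8%, rno-miR-33-5p could be moved only little by it. These values therefore do not test base composition. In the 1 m sham group the levels were 21.1 to 66.6 CPM and the slopes −0.01 to 0.01.

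Marker lists of cell types were compared in the same libraries. The red cell miRNAs miR-451-5p and miR-144-5p summed to 47.0 to 340 CPM in the 1 m sham rats and 65.0 to 101 CPM in the 1 m TBI rats, overlapping groups with medians of 187 and 73.7 CPM. The 3 vessel wall miRNAs summed to 1027 to 1671 CPM in sham and 697 to 1413 CPM in TBI rats there, and the 7 neuronal names to 216904 to 280731 and 148580 to 229758 CPM. The 3 leukocyte and microglial miRNAs ranged from 814 to 935 CPM in sham and 843 to 1236 CPM in TBI rats, the 3 of the choroid plexus from 1379 to 4435 and 1512 to 4421 CPM, and the 3 of oligodendrocytes from 1642 to 2857 and 1930 to 2485 CPM. The neuronal sum was mostly miR-9a-5p (mean 195388 CPM over all libraries), against 214 CPM for the defining miR-124-5p. In the leukocyte and microglial sum most was miR-150-5p (990 CPM), against 156 CPM for the defining miR-142-5p. The oligodendrocyte sum was mostly miR-338-5p (mean 1944 CPM over all libraries), against 254 CPM for miR-219a-5p and 2.025 CPM for miR-3065-5p. At 1 m that sum had medians of 1958 CPM in sham and 2187 CPM in TBI rats. There miR-219a-5p and miR-3065-5p had log2 fold changes of −0.96 and −0.99, so the sum does not show each member. Every list overlapped between the arms at 1 m and at 2 m, and no defining miRNA was at 0. Their part in the level of rno-miR-33-5p was not tested.

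The miRNAs whose log2 CPM followed rno-miR-33-5p most closely over the 56 libraries were miR-136-5p (Spearman rho 0.69), miR-219a-5p (0.68), miR-26b-5p (0.60), miR-32-5p (0.58) and miR-3559-5p (0.57). The lowest values belonged to miR-362-5p (−0.50), miR-378b (−0.49) and miR-339-5p (−0.48). All points share the library and its scaling, so these are descriptions. The relation was closer in the 15 libraries of usual depth at 1 m and 2 m, with 0.91 for miR-219a-5p, 0.90 for miR-32-5p and 0.83 for miR-136-5p, than in the other 40, with 0.55, 0.21 and 0.57. For miR-339-5p it was −0.26 and −0.08, for miR-378b −0.725 and −0.29, and for miR-362-5p −0.16 and −0.20.

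The sequences are shown, with seeds in capitals, so that seeds and base composition can be compared for the 4 of the 5 most similar miRNAs with an entry in RefSeq and for 1 of the least similar. miR-136-5p has no sequence here.
rno-miR-219a-5p: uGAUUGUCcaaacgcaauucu
rno-miR-26b-5p: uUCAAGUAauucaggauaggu
rno-miR-32-5p: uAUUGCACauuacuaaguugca
rno-miR-3559-5p: uGACAGACuuaguacuacauga
rno-miR-339-5p: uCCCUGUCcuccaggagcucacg
GC content was 38.1%, 33.3%, 31.8% and 36.4% in the 4 of high likeness and 65.2% in miR-339-5p. Over 221 miRNAs, likeness to rno-miR-33-5p fell with GC content (Spearman rho −0.40), and the median GC content was 40.9% among the 20 most like and 52.2% among the 20 least like.

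**Figure D4:**
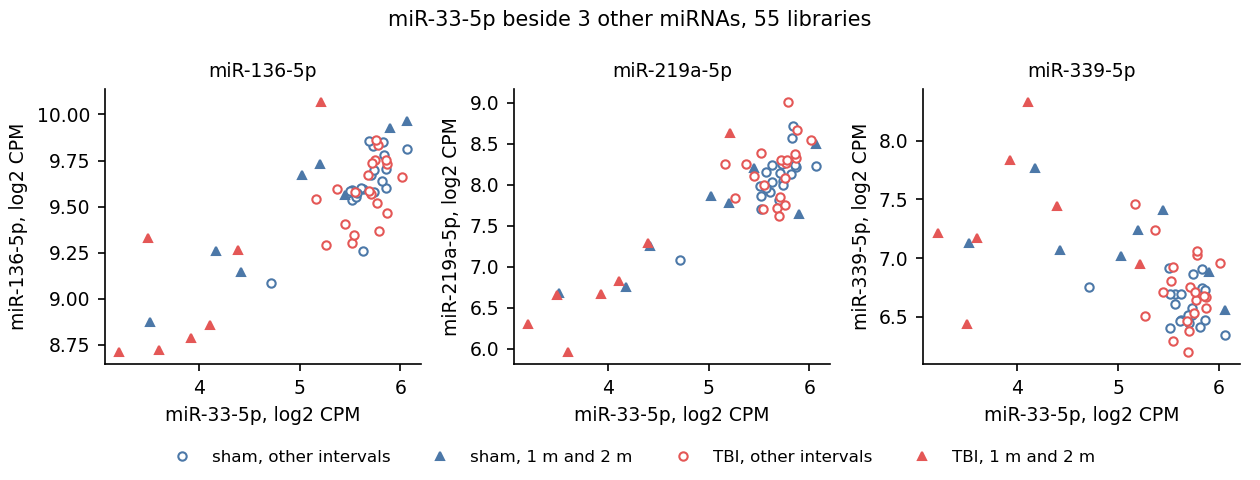
Log2 CPM of miR-136-5p, miR-219a-5p and miR-339-5p (vertical axes) against log2 CPM of rno-miR-33-5p (horizontal axes) in the 55 libraries without the shallow one, with 1 m and 2 m as filled triangles and the other intervals as open circles, sham in blue and TBI in red. Libraries of 1 m and 2 m with little rno-miR-33-5p also have little miR-136-5p and miR-219a-5p (rho 0.83 and 0.91 over 15 libraries), while miR-339-5p scatters more widely (−0.26).

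miR-219a-5p, a miRNA of maturing oligodendrocytes, had 152.9 to 360.7 CPM in sham rats at 1 m and 100 to 157 CPM in TBI rats, and 209 to 282 CPM and 197 to 406 CPM in sham and TBI rats at 3 m. The arms thus overlapped at both intervals, and at 2 m the ranges were 102 to 296 CPM in sham and 62.2 to 398 CPM in TBI rats. miR-136-5p, from the imprinted Dlk1-Dio3 cluster, had 567 to 1000 CPM in sham and 441 to 643 CPM in TBI rats at 1 m. At 1 m the 5 most similar miRNAs all had log2 fold changes below 0, from −0.96 for miR-219a-5p to −0.24 for miR-26b-5p, and the 3 least similar all lay above 0, from 0.09 for miR-362-5p to 0.81 for miR-339-5p. The 1 m libraries entered the choice of these miRNAs, so this is a description. At the other 6 intervals none of the 8 had an adjusted p under 0.05 (lowest 0.387, at 2 w).

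Other miRNAs known to act on cholesterol and lipid genes were followed as a list. Of 34 names on that list 33 were in the table, and besides rno-miR-33-5p they gave 35 entries, of which 16 were the arm usually studied, 17 the other arm and 2 had no arm in the name. Between 23 and 26 of them were tested at an interval. At 24 h 2 of 25 rose, miR-27a-5p (log2 fold change 1.00, standard error 0.19, adjusted p = 0.0247) and miR-20a-5p (0.81, 0.17, 0.0341), and 0 fell, beside 4 of all 233 miRNAs tested there (1.72%). miR-20a-5p is named for its family's repression of Abca1, whereas miR-27a-5p is the arm opposite to the one studied for cholesterol transport. From 2 w on, with 1 m left out, 0 of them passed edgeR's test in either direction, with 4, 3, 2, 2 and 4 at an unadjusted p under 0.05 and, as given above, edgeR called 0% of all miRNAs at these 5 intervals. DESeq2 called 2 of them at 2 w, beside 7 of 227 miRNAs in all, and 0 afterwards. These were miR-96-5p and miR-183-5p of the sensory cluster, named after their values were seen, at −2.89 and −3.04 on the log2 scale in edgeR (adjusted p = 0.215 and 0.158). The median log2 fold change of the list was 0.08 at 24 h and 0.16 at 1 m, beside −0.01 and 0.02 for all miRNAs tested.

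The 4 most abundant members of that list are given with their 1 m values as a description. miR-26a-5p, with 121529 CPM on average, had a log2 fold change of −0.09 (standard error 0.17) at 1 m, and miR-30c-5p, which represses the lipoprotein assembly factor Mttp, one of 0.08 (0.20). miR-125a-5p stood at 0.23 (0.20), and miR-185-5p, which acts on the low density lipoprotein receptor, at 0.01 (0.16). At the other 6 intervals the log2 fold changes of these 4 miRNAs did not pass the test.

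miRNAs that lie, like miR-33, in introns of protein-coding genes were followed as a second list. All 43 names were in the table, 35 to 38 of their entries besides rno-miR-33-5p were tested per interval, and 0 passed edgeR's test at any of the 6 intervals outside 1 m, where edgeR called 1.72% of all miRNAs at 24 h and 0% at the other 5. At an unadjusted p under 0.05 there were 1, 1, 2, 2, 2 and 3 of them from 24 h to 1 y, in order and without 1 m. Among all miRNAs tested, 220 to 236 per interval, there were 13, 21, 20, 13, 10 and 18. DESeq2 called 0 of the list. The median log2 fold change of the list was 0.01 at 1 m and −0.06 at 2 m, beside 0.02 and −0.04 for all miRNAs.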

How the data were processed

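The authors extracted hippocampal RNA with Ribopure, prepared NEBNext small RNA libraries for the NextSeq550, and quantified miRBase miRNAs by miRDeep2. Per the labels, bcl2fastq 2.20.0.422 was among the tools. The deposited values are raw counts without normalization, and 0 columns were left out. The handling of reads with several matches is not given in the sources used here.

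TBI and sham libraries of each interval were compared with edgeR 4.0.16 under R 4.3.3 (filterByExpr, TMM, quasi-likelihood test, Benjamini-Hochberg adjustment over all miRNAs tested, threshold 0.05). Standard errors (SE) follow from the F statistic as the absolute log2 fold change over its square root. CPM and log2 CPM (prior count 2) use TMM over all 56 libraries, while the limit on 0 counts is scaled to the total count only. Single comparisons were also made by two-sided exact permutation of log2 CPM over 70 arrangements. Fits over several intervals left out 1 m. Steps were tested on simulated data. Rats are the replicates, and no pair of the 84 within groups agreed within sampling noise (lowest chi-square per degree of freedom 17.5). Reads without molecular identifiers are not independent molecules, so limits on 0 counts cover counting error only.

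The miRNA, the gene lists and the alternatives were chosen with earlier results of these data known. The text names rno-miR-33-5p, the 5 miRNAs of highest and 3 of lowest Spearman correlation with it, miRNAs sharing its seed, list members with an adjusted p under 0.05 and the 4 most abundant lipid-list members. The neighbours at 1 m and the cell type markers are named outside this rule. Alternatives were the size factors of DESeq2, no filter, scaling to the total count, a minimum of 10 counts per library, edgeR's likelihood ratio test, DESeq2 1.42.0, all 56 libraries in one fit, other measures of likeness and each rat left out. The GC offset, the fits without 2 m, likeness as deviations without X747, the 1 y replicate block and edgeR's older quasi-likelihood fit were added after the data were seen. Figures were drawn with matplotlib 3.10.9.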

Additional observations from a re-analysis of the deposited data

How the results depend on the processing

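At 24 h, 2 w, 2 m, 3 m, 6 m and 1 y the adjusted p of rno-miR-33-5p was above 0.05 in all 102 alternatives, and the lowest was 0.177. The log2 fold change changed sign at 24 h with total count only (0.0014) and at 6 m with DESeq2's size factors (−0.024), no filter (−0.038), the GC offset (−0.014) and DESeq2's test (−0.023). With each rat left out in turn it was −0.30 to 0.14 at 24 h, −0.28 to −0.10 at 2 w, −1.40 to −0.21 at 2 m, 0.03 to 0.17 at 3 m, −0.026 to 0.083 at 6 m and 0.08 to 0.19 at 1 y. At 1 m, with no test, it ranged from −1.71 to −1.21 with a rat left out and from −1.49 to −1.37 otherwise. The mean effect was −0.13 to −0.02 with a rat left out and 0.0059 without 2 m.

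The call across intervals in sham rats was lost with total count only (adjusted p = 0.136), with the older quasi-likelihood fit (0.0566) and without 2 m (0.728), and ranged from 0.0110 to 0.143 with a rat left out. In TBI rats it was lost without 2 m (0.0689), held in the other 6 alternatives, and ranged from 7.74e-09 to 0.0172 with a rat left out. The cause was not tested. Of the 5 most similar miRNAs, 2 were shared with Pearson's correlation, 3 with deviations from the group means, 3 with those deviations without X747, and 5 without X747.

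At least 10 counts in every library could not be used in fits that hold X747, which has 0 counts, and DESeq2 gave no p for rno-miR-33-5p across intervals in TBI rats. Only at 1 y does the number in the titles recur between the arms, and what it marks is not stated. With it as a replicate block, a fit added after the data were seen, the 1 y log2 fold change was 0.13 (adjusted p = 0.627), and the deviations of same-numbered libraries correlated at 0.028 to 0.41. No rat lay far from the other 3 of its group by Dixon's test (largest gap ratio 0.725), though X599 at 24 h and the 2 m groups weigh on the values as given. The precision is limited by 4 rats per group and, in X747, by depth.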
